A study of Mus musculus with 32 samples.

Results

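The map described here is the set of R-loop peaks recorded by MapR in H1-TKO mouse embryonic stem cells, read against the peaks of the same cells exposed to the bare nuclease. Its members are the 3 H1-TKO MapR libraries of a series of 32 samples: 2 made with the RNase H fusion (called RNH) and 1 made with the nuclease alone (MNase-only control). Together they hold 32432 of the 61948 peaks in the 6 MapR libraries of both genotypes. The labels describe the cells as mESCs of genotype H1-TKO, cultured in serum with LIF, and give no clone, passage, sex or chromosome number. The 3 libraries share the genotype and the protocol. They differ in the enzyme, GST-RH-MNase in the RNH libraries and GST-MNase in the control. Where wild-type (WT) cells are mentioned, they are the WT mESCs of the same series, also with 2 RNH libraries and 1 control. No label says whether the RNH replicates came from separate cultures, so the spread between them may be technical. Each library came as a list of peaks without read counts, so its depth is unknown.

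An R-loop is a stretch of RNA paired with its DNA template, with the other DNA strand left single. R-loops form most readily where RNA polymerase has just made G-rich RNA, above all at CpG-rich promoters and at gene ends, and they are removed by RNase H and by helicases. MapR sends micrococcal nuclease to these sites by fusing it to an RNase H that binds the hybrid without cutting it, and the DNA released nearby is sequenced. The bare nuclease cuts accessible DNA wherever it meets it, so peaks in the control mark places that appear without any binding to hybrids. Linker histone H1 binds nucleosomes where DNA enters and leaves and compacts chromatin. The H1-TKO line is known, as background, to lack Hist1h1c, Hist1h1d and Hist1h1e, which are 3 of the somatic H1 genes.

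Once peaks that also occur in the control are set aside, most of the strongest RNH regions lie in other kinds of sequence than the strongest control peaks. An exception is the highest region away from promoters, near Gm17934, which is a telomere repeat like many control peaks. The values below turn on that difference, so 5 examples are shown first, none of them a telomere repeat. All are from the plus strand of mm10. The promoter regions of Pgk1 (chrX:106186812-106187099) and Lyst (chr13:13590286-13590396) are the longest exon-free stretches within 300 bases around the summit of RNH replicate 1, with CpG pairs in capitals.
Pgk1: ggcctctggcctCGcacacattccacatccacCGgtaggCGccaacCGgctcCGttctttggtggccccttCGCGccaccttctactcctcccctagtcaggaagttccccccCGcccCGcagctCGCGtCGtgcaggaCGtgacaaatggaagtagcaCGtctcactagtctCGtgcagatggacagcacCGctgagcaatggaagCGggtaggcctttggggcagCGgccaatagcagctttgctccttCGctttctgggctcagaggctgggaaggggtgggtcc
Lyst: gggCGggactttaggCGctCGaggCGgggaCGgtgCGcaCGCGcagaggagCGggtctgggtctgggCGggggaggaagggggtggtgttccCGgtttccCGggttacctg
The Pgk1 stretch of 288 bases held 19 CpG pairs at a GC content of 62.8%, and the Lyst stretch of 111 bases held 12 at 72.1%. Plcb4 (chr2:135988537-135988836) and Lmbrd1 (chr1:24684021-24684320) are intronic RNH regions with short units that recur and without a CpG pair. Runs of at least 3 G or 3 C are in capitals.
Plcb4: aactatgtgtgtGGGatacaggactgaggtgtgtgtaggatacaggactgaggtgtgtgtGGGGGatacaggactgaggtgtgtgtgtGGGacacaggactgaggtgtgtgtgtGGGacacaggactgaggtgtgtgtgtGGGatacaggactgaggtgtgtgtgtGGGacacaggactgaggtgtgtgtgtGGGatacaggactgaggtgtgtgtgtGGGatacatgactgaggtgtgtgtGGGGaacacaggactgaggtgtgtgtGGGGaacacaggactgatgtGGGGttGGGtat
Lmbrd1: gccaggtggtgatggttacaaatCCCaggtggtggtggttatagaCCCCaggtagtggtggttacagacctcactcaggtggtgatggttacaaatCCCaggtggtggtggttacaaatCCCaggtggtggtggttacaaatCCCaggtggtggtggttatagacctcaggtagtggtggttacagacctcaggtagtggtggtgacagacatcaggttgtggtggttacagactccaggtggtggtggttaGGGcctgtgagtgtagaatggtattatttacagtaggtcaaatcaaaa
On this strand the Plcb4 stretch had far more G than C, with a skew, (G - C)/(G + C), of 0.66. The skew was 0.37 for Lmbrd1. The last comes from the highest peak of the MNase-only control, near Gm47772 (chr9:24542000-24542199), which is also a peak of both RNH libraries. Capitals mark a match to the CENP-B box, the motif bound by a protein of centromeric satellite DNA (searched on both strands).
Gm47772: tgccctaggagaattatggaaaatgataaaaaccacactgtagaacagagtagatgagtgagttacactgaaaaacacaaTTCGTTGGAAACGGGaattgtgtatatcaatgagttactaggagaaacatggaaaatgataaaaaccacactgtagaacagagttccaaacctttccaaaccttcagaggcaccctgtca
A CENP-B match stood in 4 of the 582 control windows (0.687%) of 300 bases, in 21 (0.0827%) and 11 (0.170%) of the RNH windows, and in 1 of 26461 windows placed every 100 kb along the genome.

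Peaks were far more numerous with the RNase H fusion than with the bare nuclease, and their enrichment was lower. RNH replicate 1 had 25392 peaks, replicate 2 had 6458, and the control had 582. The mean of the RNH libraries was 27.4 times the control number. Covered sequence was 13.2 Mb in replicate 1, 1.76 Mb in replicate 2 and 210.0 kb in the control, a ratio of 35.7. Both RNH libraries lay above the control, although they also differed widely from each other. For both quantities a two-sided exact permutation test over 2 against 1 libraries gave p = 0.33, the lowest value that 3 arrangements can give. The fold enrichment of a peak over its local background, as the authors gave it, had a median of 3.802 in replicate 1, 4.67 in replicate 2 and 7.22 in the control. Peaks of at least 10-fold made up 0.551% and 2.96% of the RNH lists and 34.0% of the control list. Median widths were 445, 234 and 280.5 bp, and the shortest peak was 292 bp in replicate 1 against 172 bp in replicate 2.

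In H1-TKO cells RNH peaks lay at promoters more often than control peaks did. The summit was within 1 kb of an annotated transcript start for 47.8% of the peaks in replicate 1 and 49.9% in replicate 2, against 11.2% in the control. The genome grid had 6.01%, and the WT RNH libraries had 47.3% and 38.6%. The RNH mean of 48.9% ± 1.47 (SD, n = 2) was 37.7 percentage points above the control (p = 0.33, exact permutation, lowest attainable value). The difference exceeded the SD of the RNH libraries, but the control is 1 library, so its own spread is unknown. Introns held 20.4% and 20.997% of RNH summits and 32.1% of control summits, against 38.3% of the grid. Windows of 1 kb around gene ends, counted without promoter summits, held 3.13% and 3.47% of all RNH summits and 4.61% of the grid. This rule lowers the share where many summits are at promoters. Among summits away from promoters, gene ends held 795 of 13247 in replicate 1, 224 of 3235 in replicate 2 and 1219 of 24870 on the grid. RNH summits were thus found more often at gene starts than positions of the grid. At gene ends they were more frequent than the grid only among summits away from promoters.

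**Figure D1:**
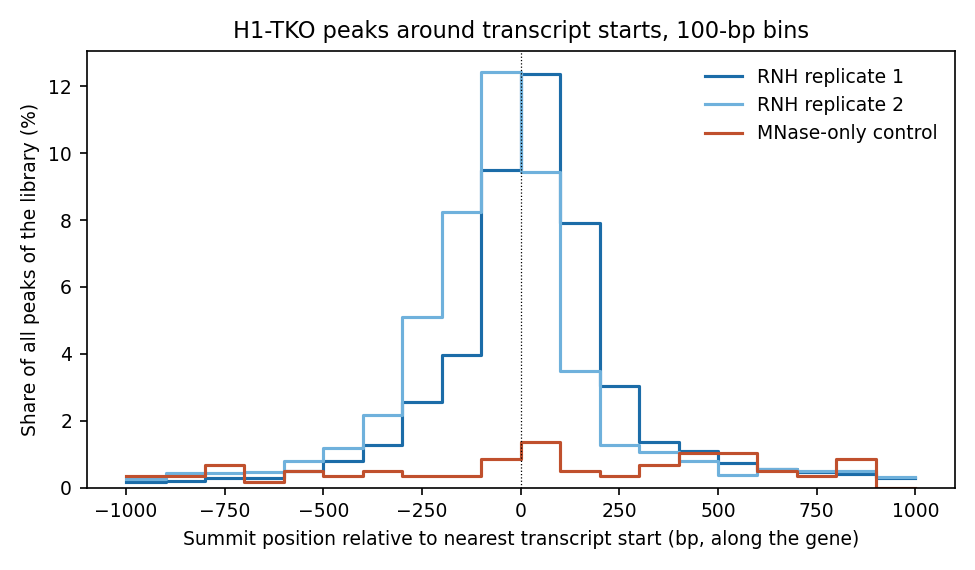
Share of each library's peaks (y axis, percent) by the position of the summit along the gene relative to the nearest transcript start (x axis, bp, 100-bp bins), for the 2 H1-TKO RNH libraries and the MNase-only control. Replicate 1 peaks in the bin just downstream of the start with 12.4% of its peaks, replicate 2 in the bin just upstream with 12.4%, and no control bin exceeds 1.37%.

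Promoter summits gathered close to the start. In replicate 1, 70.6% of the promoter summits lay within 200 bp of a start, as did 67.3% in replicate 2 and 27.7% in the control. The RNH replicates sat on different sides of the start. In replicate 1 the median promoter summit was 26 bp downstream, with 58.5% of 12145 summits downstream, and in replicate 2 it was 46 bp upstream, with 36.3% of 3223 downstream. An offset in the same direction appeared when the same promoters were compared. Among 2448 shared promoter regions the replicate 2 summit was upstream of the replicate 1 summit in 65.6%, with a median shift of 86 bp (-86 along the gene). Positions there were taken from the start nearest to the replicate 1 summit. Replicate 1 was nearly centred on it, with a median of 4 bp downstream and 51.8% downstream. Replicate 2 had a median of 106 bp upstream and 30.1% downstream. In WT cells the replicates were ordered alike, at 55.4% and 46.4% downstream. The side of the start thus differed between replicates of 1 genotype, in both genotypes.

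RNH peaks were rich in G, C and CpG, as promoters are. The median GC content of 300 bases around summits was 62.0% in replicate 1, 56.7% in replicate 2, 46.3% in the control, 41.7% on the genome grid and 58.0% at coding gene starts. The RNH mean of 59.3% ± 3.77 (SD, n = 2) was 13.0 percentage points above the control (p = 0.33, exact permutation, lowest attainable value). Cut to the 582 peaks with the highest significance, replicate 2 gave 50.3%, and the RNH mean was 8.83 points above the control (exact permutation, p = 0.67). The observed to expected ratio of CpG pairs had medians of 0.585 and 0.476 in the RNH libraries and 0.179 in the control, where the grid had 0.149. Away from promoters the RNH windows were still GC-rich, with medians of 56.7% and 51.3% against 46.3% for the control. The order of GC content was thus replicate 1, replicate 2 and control, at promoters and away from them alike.

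**Figure D2:**
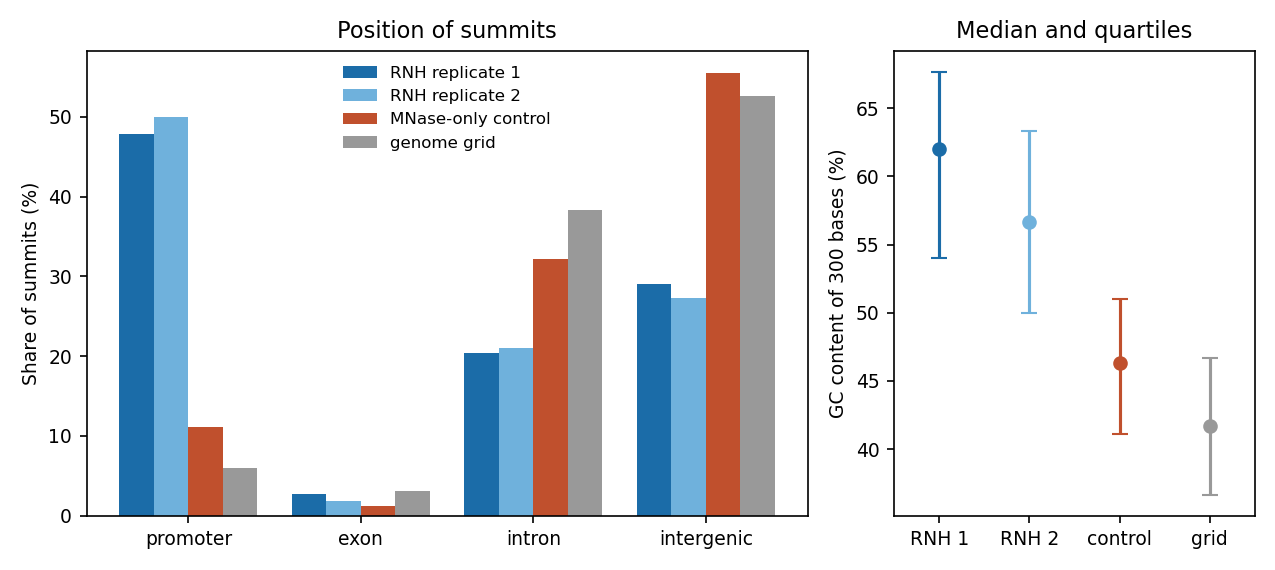
Left, share of peak summits (percent) in promoters, exons, introns and intergenic sequence for the 2 H1-TKO RNH libraries, the MNase-only control and windows placed every 100 kb (genome grid). Right, median GC content (points) with the lower and upper quartiles (bars) of 300 bases around summits; the control median of 46.3% is below the lower quartiles of both RNH libraries, 54.0% and 50.0%.

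Guanine runs were more frequent in the control over all peaks, but more frequent in the RNH libraries within single-copy sequence and at promoters. A G-quadruplex pattern, 4 runs of at least 3 G joined by loops of 1 to 7 bases on either strand, stood in 18.4% and 23.1% of the RNH windows and in 32.3% of the control windows. The grid had 4.97% and coding gene starts 21.5%. In the control the pattern came from repeats: 97.5% of its telomere-repeat windows and 86.0% of its windows of repeat family 4 (described below) held it, but 6.72% of its single-copy windows. Single-copy windows of the RNH libraries held it in 23.2% and 24.1%. At promoters 28.8% of the windows of replicate 1, 28.7% of replicate 2 and 10.8% of the control held the pattern, and away from promoters 8.82%, 17.5% and 35.0%. A strong imbalance of G and C between strands (absolute skew over 0.5) was found in 309 peaks (1.22%) of replicate 1, 188 (2.91%) of replicate 2 and 85 (14.6%) of the control, against 1.49% of the grid.

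Dispersed repeats rich in G and C were common in the RNH lists and nearly absent from the control. Repeat families were built from 21-base words shared by the summit windows of the H1-TKO libraries, so their sizes in these libraries are a description. Family 6 was built from control windows alone, the others from the pooled windows of all libraries, most of them RNH windows. Families 1, 2 and 3 were found in RNH peaks, and their leading words are printed because no repeat annotation was used to name them.
Family 1: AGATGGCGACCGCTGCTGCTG
Family 2: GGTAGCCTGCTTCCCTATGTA
Family 3: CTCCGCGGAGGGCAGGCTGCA
Family 1 was in 2392 peaks (9.42%) of replicate 1, 152 (2.35%) of replicate 2 and none of the control, and in 0.0794% of the grid. Its windows had a median GC content of 65.7% and words found in a median of 1899 copies in the genome. Family 2 was in 1287, 128 and 2 peaks, and family 3 in 402, 4 and 0 peaks, in the same order of libraries. Most lay outside genes, with 68.2% of family 1 windows intergenic and 1.73% at a promoter. The median fold was 5.01 for family 1 in replicate 1 against 3.65 for its single-copy windows, whereas in replicate 2 both were close, at 4.62 and 4.65. In the WT libraries family 1 held 9.42% and 4.36% of the peaks. Reads that match many copies cannot be assigned to one, and the treatment of such reads by the authors is unknown here.

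**Figure D3:**
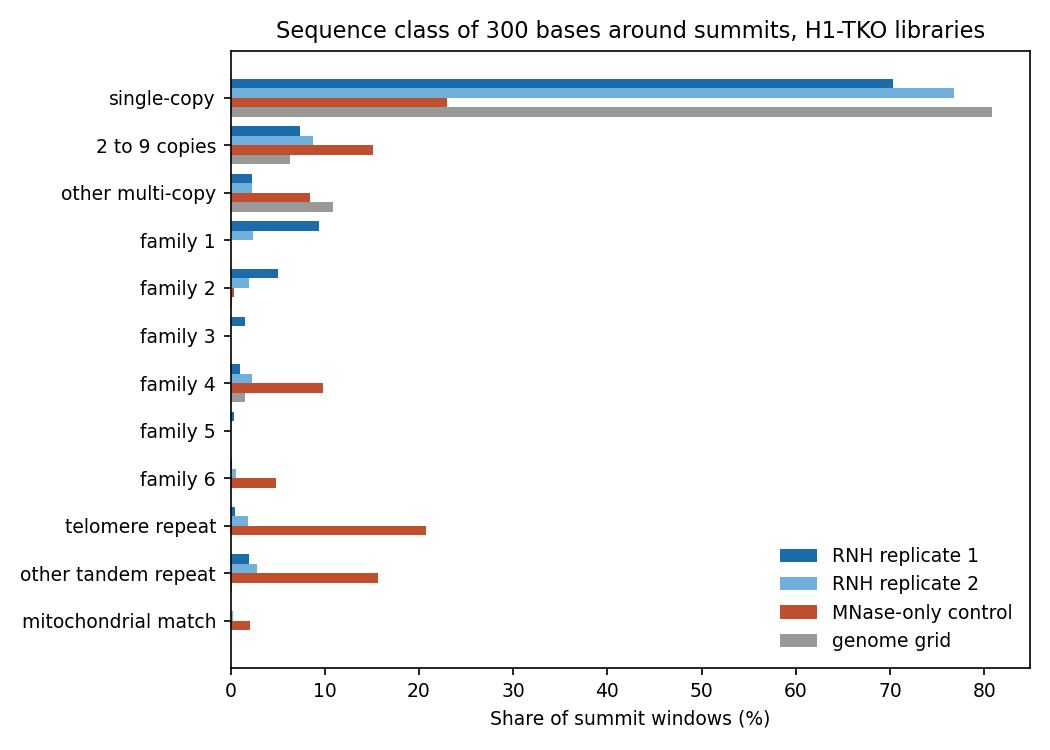
Share of summit windows of 300 bases (x axis, percent) in each sequence class (y axis) for the 2 H1-TKO RNH libraries, the MNase-only control and the genome grid. Single-copy windows make up 70.3% and 76.8% of the RNH lists but 23.0% of the control list, where telomere repeats take 20.8%.

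Among positions relative to genes, the RNH replicates overlapped most at promoters. Of the replicate 2 peaks, 4199 of 6458 (65.0%) met a peak of replicate 1, and 80.5% did so among those at promoters, against 46.0% in introns and 53.4% between genes. Seen from replicate 1, 4113 of 25392 (16.2%) met a peak of replicate 2, from 6.44% of the 6348 least significant peaks to 32.1% of the 6348 most significant. The spans of overlapping peaks from both replicates were taken as shared regions. There were 4055 of them, of which 368 met a control peak and 3687 did not. The 3687 regions off the control covered 2.59 Mb and had a median width of 660 bp. Of these, 2484 (67.4%) overlapped a promoter and 1203 did not. The fold enrichment of the replicates was only loosely related across these regions (Pearson's r of log2 values 0.32 across regions, which are not independent replicates). Removing repeat families left 3420 regions, 72.5% of them at promoters.

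Off the control, the strongest shared promoter region was that of Pgk1, the glycolytic enzyme phosphoglycerate kinase. It spanned chrX:106186687-106187243, with 10.5-fold enrichment in replicate 1, 9.87-fold in replicate 2 and no peak in the control. In WT cells the same place had 4.47-fold and 5.28-fold, so both H1-TKO values were above both WT values. The summit was 138 bp upstream of the start in replicate 1. The Pgk1 promoter is widely used to drive selection markers in gene targeting; no source used here says whether this line carries such a cassette, and its part in the value was not tested.

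Behind Pgk1 the 14 regions next in rank had smaller folds between 6.28 and 8.44, and apart from Plcb4, at 54.3%, all had GC-rich windows of 59.3% to 74.3%. Plcb4, a phospholipase of G-protein signalling, had 9.30-fold and 8.44-fold enrichment, with the summit 811 bp downstream of a start in the CpG-free repeat printed above. Stxbp5l, a syntaxin-binding protein of secretion, had 7.00-fold and 7.88-fold. Lyst, the lysosomal trafficking regulator, had 7.72-fold and 6.86-fold with its summit 27 bp downstream. Chgb, the secretory granule protein chromogranin B, had 6.77-fold and 6.97-fold. Gorab, a Golgi protein, had 6.69-fold and 6.86-fold, and Mycbp, a binding partner of MYC, 6.69-fold and 6.73-fold. Poln, a DNA polymerase that shares its promoter region with Haus3, had 6.68-fold and 8.16-fold with the summit 1 bp from a start. Zfp868, Gpr155, Aph1b, Cox16, Gm18190, Gm37494 and Mpp7 completed the list, with smaller folds from 6.28 to 7.02. The WT libraries also had a peak at each of these places in replicate 1, at 4.42-fold to 8.77-fold.

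Shared regions off the control and away from promoters were of another kind. The highest of these lay at chr3:6115864-6116391, 22113 bp from the nearest start, that of the pseudogene Gm17934, with 8.18-fold and 8.30-fold enrichment. Its window of 300 bases held 19 telomere hexamers inside the chromosome. The next ones lay in introns of Lmbrd1, a lysosomal cobalamin transporter (8.10-fold and 7.65-fold), and Stau2, an RNA-binding protein of dendrites (7.39-fold and 11.1-fold). The Stau2 window was a simple repeat with almost no G on the plus strand, at a skew of -0.98. Zfp473, a zinc finger gene of the histone mRNA pathway, had 7.27-fold and 7.88-fold at a skew of 0.60, and the region near Gm11850 had 6.98-fold and 8.01-fold. All 5 were outside exons, and 4 of the 5 held no CpG pair in their window. Over the 1203 regions away from promoters, 731 were in single-copy sequence, 146 in family 1, 91 in family 2 and 5 in telomere repeats. Single-copy regions had a median GC content of 52.3%, and 15.6% of them held a G-quadruplex pattern.

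At the gene level, 3213 of 52194 annotated genes (6.16%) had a shared region off the control at a promoter. Protein-coding genes made up 2677 of these, or 12.2% of 21938 coding genes. A promoter peak of replicate 1 was found at 26.1% of all genes and 50.2% of coding genes, 1 of replicate 2 at 7.57% and 14.6%, and 1 of the control at 0.157% and 0.132%. Promoter sequence separated the genes. Among the 9744 coding genes with a CpG-rich promoter (GC content of at least 50% and a CpG ratio of at least 0.6 in 1000 bases) 20.9% had a shared region, against 5.24% of the other 12194. Divergent promoters, with another transcript start on the opposite strand within 1 kb upstream, were hit more often: 25.4% of 3005 against 10.1% of the rest, and within CpG-rich promoters 28.0% against 18.6%. The excess of G over C on the coding strand in the first 500 bases had a median of 0.067 for genes with a shared region and 0.047 for genes with no RNH peak, and was positive for 72.6% and 64.4%. Over all coding genes it was 0.052 and 66.8%, and over all CpG-rich promoters 0.055 and 69.5%. CpG-rich promoters made up 76.1% of the genes with a shared region and 16.5% of those with no RNH peak, and their part in the difference was not tested. Among non-coding classes, 14.7% of 190 bidirectional promoter lncRNAs, 5.14% of 2959 antisense genes, 2.14% of 5854 lincRNAs and 0.302% of 9940 processed pseudogenes had a shared region. The count of genes rests on the peak threshold: with a -log10 q of at least 5 it was 1272.

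Gene lists were read against the shares of 6.16% over all genes and 12.2% over coding genes. The lists were drawn up with earlier results of these data known and are described by counts only, and the folds given for a gene are those of the highest peak at its promoter in each replicate. Whether the lists differ in promoter CpG content, which moves with the share as shown above, was not tested. The list of translation and housekeeping genes had the highest share, with 14 of 29 (48.3%). After Pgk1, the highest were the glycolytic enzymes Pkm, at 4.23-fold and 4.25-fold, and Eno1, at 3.93-fold and 4.30-fold, and the chaperone Hspa5, at 3.93-fold and 5.32-fold. Ribosomal protein genes had 6 of 83 (7.23%), below the share over coding genes, among them Rpl10, at 4.53-fold and 5.91-fold, and Rps25, at 4.24-fold and 5.01-fold. Of these 83 genes, 40 had a peak in replicate 1 and 43 in neither library.

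Genes for stable nuclear RNAs and snoRNA hosts had 5 of 18 (27.8%). Rpph1, the RNA of RNase P, had 5.04-fold and 7.62-fold enrichment. Rmrp, the RNA of the related enzyme RNase MRP, had 4.69-fold and 4.30-fold, and Rnu2-10, a U2 spliceosomal RNA gene, 4.24-fold and 5.81-fold. The snoRNA host Gas5 had 3.47-fold and 4.09-fold. Rn7sk, the RNA that holds the elongation factor P-TEFb inactive, had peaks in both RNH libraries, at 4.65-fold and 6.94-fold, but also in the control at 6.95-fold, so it is not among the shared regions off the control. The window of the Rn7sk control peak was in the class of 2 to 9 copies. Whether the other RNA genes named here have copies elsewhere in the genome was not tested, and reads from copies cannot be told apart in the lists. Long non-coding RNA genes of the nucleus had 3 of 26 (11.5%), among them Dleu2, at 5.08-fold and 4.71-fold, and Tug1, at 4.76-fold and 3.70-fold.

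In the 3 lists of genes that act on RNA and on R-loops the shares were 21.7% to 26.1%. In the list of R-loop processing genes 6 of 25 (24.0%) had a shared region, among them Prmt5, a methyltransferase that acts with helicases (4.72-fold and 4.72-fold), Srsf1, a splicing factor (3.85-fold and 3.74-fold), and Ddx5, an RNA helicase (3.71-fold and 5.08-fold). In the m6A pathway, which methylates adenosine in RNA, it was 6 of 23 (26.1%), among them the writer subunits Cbll1 (4.60-fold and 4.77-fold), Virma (4.34-fold and 4.55-fold) and Rbm15 (4.75-fold and 4.15-fold), and the RNA-binding protein Hnrnpc (4.07-fold and 4.45-fold). In nuclear RNA decay it was 5 of 23 (21.7%), with Exosc2, an exosome subunit, at 5.22-fold and 5.38-fold, Ints3 of the Integrator complex at 5.17-fold and 6.30-fold, and the exonuclease Xrn1 at 4.46-fold and 4.29-fold. In replicate 1 alone, 22 of the 23 m6A genes (95.7%) had a promoter peak, against 50.2% of coding genes, and 6 of the 23 had 1 in replicate 2. Immediate early and stress genes had 4 of 22 (18.2%), with Ier5, Dusp1, Egr1 and Cdkn1a.

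Nearly all core histone genes had a promoter peak in replicate 1. Of 61, 58 (95.1%) had 1 there and 13 (21.3%) in replicate 2, against 50.2% and 14.6% of coding genes, and 10 (16.4%) had a shared region, led by Hist1h4h at 4.27-fold and 4.11-fold and Hist4h4 at 3.85-fold and 3.73-fold. These genes are clustered and near-identical, so a region can serve several of them: Hist2h2aa2 and Hist2h3c2 shared 1 region. Among the 9 H1 genes, 1 had a shared promoter region, Hist1h1b, at 2.76-fold and 3.799-fold. Over the gene bodies with 1 kb on both sides, the genes known to be deleted still had peaks, in replicate 1 Hist1h1e (4.54-fold) and Hist1h1c (3.15-fold), and in replicate 2 Hist1h1d (5.08-fold). The same 4.54-fold also stands at the promoter of Hist1h2be in replicate 1, whose start lies inside Hist1h1e, so the peak can belong to either gene. No source used here gives the deleted stretches, so these peaks do not check the labels.

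Lists of genes that define cell types are small, and their counts are given beside the 12.2% over coding genes with nothing read from them. Of 34 pluripotency genes, which mark embryonic stem cells, 20 (58.8%) had a promoter peak in replicate 1 and 2 (5.88%) in replicate 2, against 50.2% and 14.6% of coding genes, and 1 (2.94%) had a shared region, Trim28, at 3.03-fold and 3.37-fold. Endoderm and mesoderm markers had 0 of 15 and 0 of 13, neuroectoderm markers 2 of 13 (15.4%, Pax6 and Tubb3) and fibroblast markers 2 of 13 (15.4%, Fn1 and Vim). Peaks are no measure of RNA level, so these counts do not test the cell type. Imprinted genes had 3 of 31, namely Copg2 at 5.53-fold and 5.92-fold, the ubiquitin ligase gene Ube3a at 6.18-fold and 5.22-fold, and Plagl1 at 4.13-fold and 4.72-fold, and germline genes 3 of 25, among them the meiotic recombinase gene Dmc1 at 4.07-fold and 5.18-fold. Odour receptor genes had 0 of 1134, with a promoter peak for 11 in replicate 1 and none in replicate 2. Of 16 genes of the 2-cell-stage embryo, 1 had a peak in replicate 1 and none in replicate 2.

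**Figure D4:**
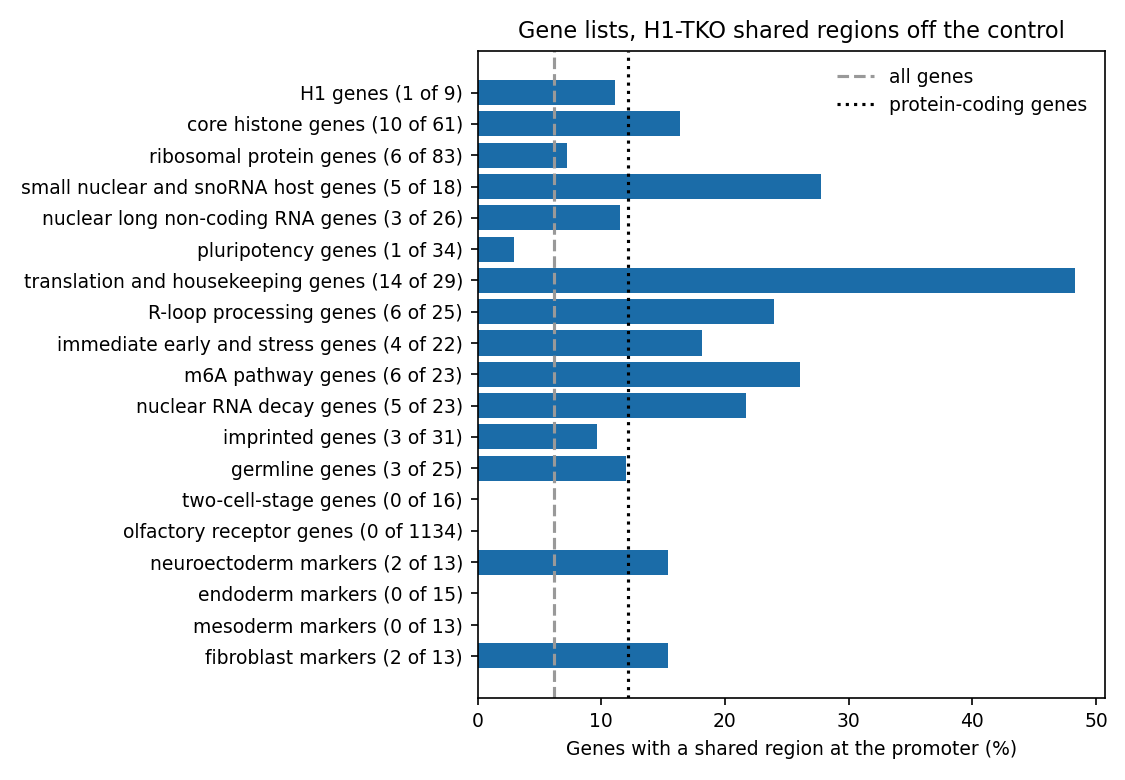
Share of the genes of each list (bars, percent) with a region shared by both H1-TKO RNH replicates and off the control at the promoter; the number of such genes and of genes found stands in brackets. The dashed line is the share over all genes (6.16%), the dotted line that over protein-coding genes (12.2%), and the longest bar is the 48.3% of the translation and housekeeping genes.

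The control peaks lay mostly in repeats. Of the 582 MNase-only peaks, 121 (20.8%) had at least 4 telomere hexamers in the 300 bases around the summit, against 0.0151% of the genome grid, 129 peaks (0.508%) of RNH replicate 1 and 119 (1.84%) of replicate 2. In number these were nearly the same in all 3 libraries. A further 91 control peaks (15.6%) were in other tandem repeats and 57 (9.79%) in family 4, a dispersed repeat. Family 6, an AT-rich repeat built from control windows alone, had 28 control peaks (4.81%), beside 28 peaks (0.110%) of RNH replicate 1 and 36 (0.557%) of replicate 2. The mitochondrial genome was matched by 12 control peaks (2.06%). Sequence in a single copy accounted for 134 (23.0%), where the RNH libraries had 70.3% and 76.8%. This class holds windows whose words had a median count of a single copy in the assembly and that fell into no other class. By word count alone, single-copy windows made up 42.3% of the control list and 70.9% and 78.6% of the RNH lists. A repeat that the assembly leaves out can fall into the class. The CENP-B windows near Gm47772 and in Chl1, both among the highest control peaks, are in this class. Gaps in the assembly lay within 5 kb of 11.5% of control peaks, 0.496% and 1.49% of RNH peaks and 0.110% of the grid. Among the telomere-repeat peaks of the control it was 14.9%, so most of these were not near a gap. The WT control was made up alike, with 18.8% telomere repeats and 30.5% single-copy windows, and 349 of the 582 peaks (59.97%) were also in the WT control.

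The 10 highest control peaks had folds of 30.2 to 33.3 and each was also a peak of both RNH libraries. Telomere repeats within 5 kb of an assembly gap made up 5 of them, near Gm15069 and Gm15068 on chromosome X, Gm27236 on chromosome 12, Gm23941 on chromosome 3 and CR555305.3 on chromosome 19. The first of all, at chr9:24541931-24542266, had 33.3-fold enrichment in the control, 18.6-fold and 32.4-fold in the RNH libraries and 32.5-fold in the WT control. It lay 38651 bp from the start of Gm47772 and, like the peak in an intron of Chl1 (chr6:103649000-103649404, 32.05-fold), held a CENP-B box. The peak in an exon of Lars2, the mitochondrial leucyl-tRNA synthetase gene, at chr9:123461804-123462189, had 31.3-fold, and that in an intron of Cntnap5b, a neural adhesion gene, at chr1:100180102-100180381, 30.95-fold. The peak near Gm9634, in an intron of 2210408I21Rik, held family 6 and had 30.5-fold. In all 10 the fold of RNH replicate 1 was lower than that of the control, at 17.1 to 22.4, and the fold of replicate 2, at 28.1 to 35.0, was close to it.

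The 12 control peaks with a mitochondrial match had folds of 2.58 to 29.9. The highest, at chr12:97061426-97061807, matched the mitochondrial genome over 92.5% of its window and had 29.9-fold in the control, 23.0-fold and 29.7-fold in the RNH libraries. Copies of mitochondrial sequence in the nuclear genome take up reads from mitochondrial DNA, and the lists do not separate the sources. Promoters held 65 control peaks, and several of the highest were at small predicted genes: Gm23935 (27.8-fold) and Gm24270 (23.2-fold) in the class miRNA, and Gm20594 (25.4-fold), a predicted coding gene whose window matched the mitochondrial genome over 27.5%. These were named after their values had been seen.

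Most control peaks returned in the RNH libraries, and the strongest nearly always did. Replicate 1 met 440 of the 582 (75.6%) and replicate 2 met 409 (70.3%), a mean of 72.9% ± 3.77 (SD, n = 2). Of the 198 control peaks with at least 10-fold enrichment, 196 were met by both RNH libraries, and of the 384 below 10-fold, 191 (49.7%) were. The 120 control peaks met by neither had a median fold of 5.08 and none above 9.46. By class, both RNH libraries met 106 of 121 telomere-repeat peaks (87.6%), all 12 mitochondrial matches, 27 of 28 family 6 peaks, 82 of 134 single-copy peaks (61.2%) and 25 of 57 family 4 peaks (43.9%). At the 387 peaks met by both, the median fold was 10.1 in the control, 7.74 in replicate 1 and 9.32 in replicate 2, and the fold was higher than in the control at 84 peaks for replicate 1 and 165 for replicate 2.

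**Figure D5:**
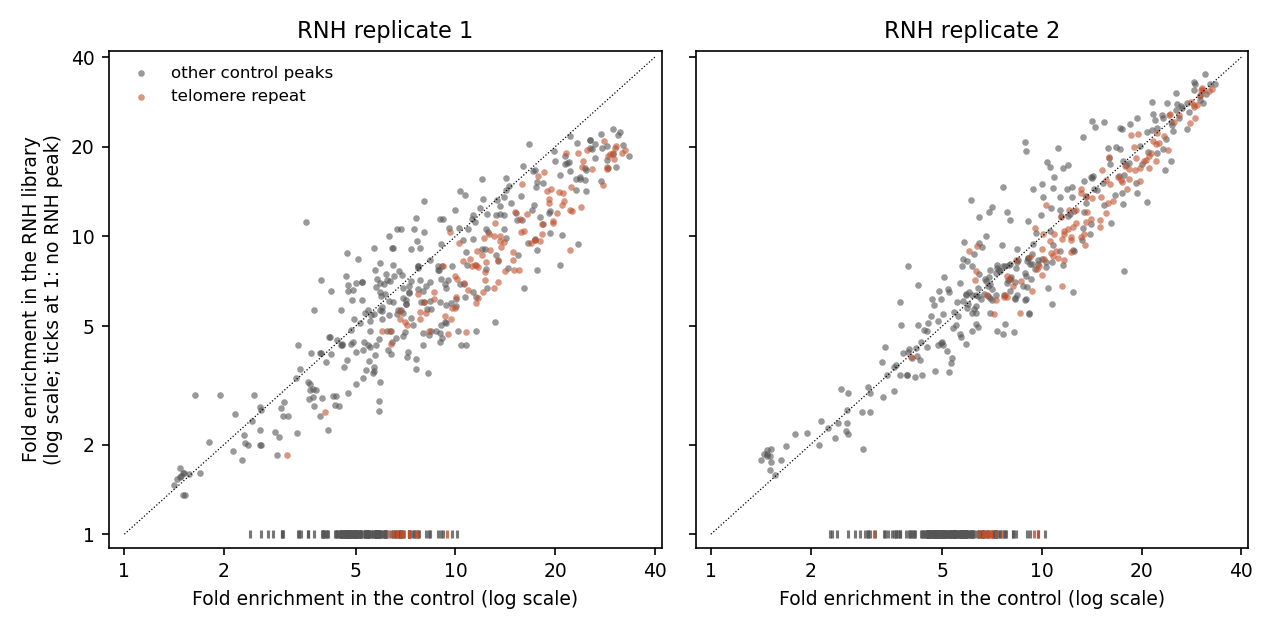
Fold enrichment of each of the 582 H1-TKO control peaks in the MNase-only library (x axis, log scale) and in RNH replicate 1 (left) and replicate 2 (right; y axis, log scale), with telomere repeats in a colour of their own. Ticks at 1 mark control peaks with no RNH peak; points cluster along the dotted line of equal fold for replicate 2 and below it for replicate 1.

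Read from the RNH side, control overlap was rare but took the top of the lists. Only 411 of 25392 peaks of replicate 1 (1.62%) and 414 of 6458 of replicate 2 (6.41%) met a control peak. Among RNH peaks of at least 10-fold, however, 138 of 140 in replicate 1 (98.6%) and 184 of 191 in replicate 2 (96.3%) did. Among peaks under 5-fold it was 0.491% and 1.89%. No shared region off the control reached 10-fold in both replicates, the highest smaller value being the 9.87 of Pgk1. The deposited RNH lists thus still hold most of the control peaks, and nearly all of the RNH peaks of at least 10-fold met a control peak.

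Most shared H1-TKO regions at promoters also had a peak in WT cells. Of the 3687 shared regions off the control, 3167 (85.9%) met a peak of WT RNH replicate 1, 1649 (44.7%) one of WT replicate 2, and 433 (11.7%) neither. The regions with no WT peak were 5.23% of those at promoters and 25.2% of those away from promoters. The GC content around summits was 59.3% ± 3.77 (SD, n = 2) in H1-TKO and 59.2% ± 2.59 (SD, n = 2) in WT, a difference of 0.17 percentage points (p = 1, exact permutation, where 0.33 is the lowest value). Median peak widths averaged 339.5 bp ± 149.2 (SD, n = 2) in H1-TKO and 388 bp ± 116 (SD, n = 2) in WT, a ratio of 0.875 (exact permutation test, p = 0.67). Neither difference exceeded the spread between replicates. Chromosome 11 held 11.7% of the shared H1-TKO regions off the control and 8.48% and 10.5% of the RNH peaks, against 6.58% and 6.06% in WT and 7.47% of coding gene starts, while its share of control peaks was 4.64% in H1-TKO and 4.23% in WT. Other chromosomes differed too, some in the other direction. Chromosome 14 held 3.94% and 3.59% of the RNH peaks in H1-TKO against 4.99% and 6.16% in WT. For chromosome 1 the shares were 6.52% and 5.56% in H1-TKO against 7.64% and 8.61% in WT. Whether the lines differ in chromosome number was not tested.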

How the data were processed

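MapR released DNA of 200 to 1000 bp, sequenced in reads of 50 bp, per the labels' protocols. BWA, MACS2 and the build mm10 are named in the submitters' processing notes. No source used here gives versions, options or the library that served as background in peak calling. The authors deposited 1 peak list per library, without pooling, with a fold enrichment (a ratio), -log10 p, -log10 q and a score for each peak. Read depth is unknown, so no counting error is given.

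Summits were assigned to transcript starts (1 kb on both sides, GENCODE release M21), exons, introns or intergenic sequence, and 300 bases around each summit were read from the GRCm38 genome (RefSeq). Telomere hexamers, the CENP-B box and mitochondrial words (21 bases, at least 20% of the window) were searched in the same windows. Copies were counted as genome-wide occurrences of 31-base words; families were built from 21-base words, a class needed at least 20 of them, and tandem repeats at least 80% identity at a period up to 150 bp. Overlaps were of at least 1 bp. Comparisons between libraries used exact permutation tests (two-sided). Python 3.11 scripts were tested on simulated peaks. The members, gene lists and rule for named regions were chosen with earlier results of these data known; the sequence classes and repeat families were added after the peaks had been seen. The rule names the H1 genes, the 15 promoter regions and 5 other regions with the highest smaller fold, the 10 highest control peaks and up to 4 members per list. A gene of 1 list and the sequence of 1 control peak are not reported here.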

Additional observations from a re-analysis of the deposited data

How the results depend on the processing

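The number of peaks and the bases they covered stayed above the control under every setting run for them, as did the promoter share and GC content. Leaving out 1 RNH replicate gave log2 ratios of 3.47 to 5.45 for peak number and 3.07 to 5.98 for covered bases, differences of 36.7 to 38.7 percentage points in promoter share and 10.3 to 15.7 in GC content, and 70.3% to 75.6% of control peaks met. With equal list lengths the promoter share differed by 28.5 percentage points and GC content by 8.83, and replicate 2 gave 50.3% GC, much nearer to the 46.3% of the control. Another setting, added after the data had been seen, kept windows in a single copy by word count alone. The differences were then 50.1 and 14.8 percentage points. It kept 246 control windows, against 134 in the single-copy class, so windows of telomere and other repeat classes were still among them.

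With a -log10 q of at least 5, 82.0% of control peaks met an RNH peak, the shared regions off the control fell to 1246 with 76.5% at promoters, and the genes to 1272. The promoter share of the shared regions was 69.6% with 2 kb windows, 62.6% with control peaks kept and 72.5% without repeat families, the last added after the data had been seen. The fold of each of the 20 named regions is given as the smaller of its 2 replicates. By this definition it rises to the larger when the lower replicate is left out, so leaving out a replicate tests nothing there.

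The comparison with WT changed sign: the GC difference was 0 with a -log10 q of at least 5 and ranged from -2.5 to 2.83 when 1 replicate was left out, and the log2 width ratio ranged from -0.73 to 0.20. With the replicate block the GC difference was 0.17 (exact sign-flip test, p = 1) and the log2 width ratio -0.23 (exact sign-flip test, p = 0.5, the smallest that 2 pairs allow). The samples share only a number; deviations of same-numbered replicates correlated at 0.42 across 1923 peaks found in all 4 RNH libraries.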
